A study of Mus musculus with 14 samples.

Results

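The genes described here encode the machinery that presents peptides on MHC class I: the class I chains H2-D1, H2-K1 and B2m, the peptide transporter subunits Tap1 and Tap2, the loading factor Tapbp, the immunoproteasome subunits Psmb8, Psmb9 and Psmb10, and the transactivator Nlrc5. They were chosen by symbol, and all 10 were found among the 50508 gene rows of each of the 2 count tables, one thymic and one from mice labelled retrogenic. The study asked how innate-like killer T cells (ILTCk), αβ T cells with killer-cell features found in mouse tumours, differ from conventional CD8 T cells. The 10 bulk RNA-seq libraries fall into 5 groups of 2. Thymic ILTCk progenitors (ILTCkP) were set against conventional CD8 single-positive thymocytes (CD8SP), both from C57BL/6 mice. NK1.1+ ILTCk and NK1.1- ILTCk were set against PD1+ Tconv, the label of conventional T cells positive for PD-1, and all 3 of these groups came from mice labelled retrogenic, that is, with blood cells rebuilt from stem cells given a T cell receptor gene. The sources used here do not give the receptor, the age of the mice or any treatment. By the labels' protocols, NK1.1+ ILTCk were sorted from tumours as TCRβ+ CD8α+ PD-1- NK1.1+ cells and the PD-1+ T cells as TCRβ+ CD8α+ PD-1+ NK1.1- cells, and thymic progenitors were gated as negative or dull for CD4 and CD8α. They do not give the gate or tissue of the NK1.1- ILTCk, and the cell type label of both ILTCk groups reads as progenitors while the titles, followed here, do not. The 2 libraries of a group are called biological replicates, but nothing states which animals they came from, so p-values measure the spread between these libraries only.

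As background, class I molecules show peptides from inside the cell to CD8 T cells, and they are also ligands of inhibitory receptors on natural killer cells. Proteasomes cut cytosolic proteins, and in cells exposed to interferon-γ the catalytic subunits Psmb6, Psmb7 and Psmb5 are exchanged for Psmb9, Psmb10 and Psmb8. Tap1 and Tap2 carry the peptides into the endoplasmic reticulum, where tapasin, the product of Tapbp, holds the empty heavy chain beside the transporter until a peptide binds. Heavy chains such as H2-D1 and H2-K1 need the light chain B2m to fold and reach the cell surface. Nlrc5, a relative of the class II transactivator Ciita, is recruited to the promoters of class I genes and raises their transcription, and lymphocytes are among the cells that express class I at high levels.

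On GRCm38 (GENCODE M21), 7 of the 10 genes lie in the MHC on chromosome 17. Psmb9, Tap1, Psmb8 and Tap2 sit side by side within 34335 bases at chr17:34181987-34216321. H2-K1 (chr17:33996017-34000347, minus strand) lies 181639 bases before Psmb9, with Tapbp (chr17:33915899-33929292, plus strand) beyond it, and H2-D1 (chr17:35262730-35267499, plus strand) lies 1046408 bases after Tap2. B2m is outside the MHC at chr2:122147686-122153083 (plus strand), and Psmb10 (chr8:105935735-105938444, minus strand) and Nlrc5 (chr8:94434356-94527272, plus strand) are on chromosome 8.

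The promoters of B2m, H2-K1 and Tap1 are shown because these genes stood lowest against CD8SP in the chain and transporter groups, and that of H2-D1 is shown beside its relative H2-K1. Each is the RefSeq window on GRCm38.p6 of 250 bases before and 50 bases after the gene's start, written 5′ to 3′ along the gene, at chr17:34000298-34000597 (minus strand) for H2-K1, chr17:35262844-35263143 for H2-D1, chr2:122147437-122147736 for B2m and chr17:34187306-34187605 for Tap1. Capitals mark every match, on either strand, to the letters searched: the interferon-stimulated response element (GAAA, any 2 bases, GAAA), the interferon-γ-activated site (TTCNNNGAA), the κB site (GGGANTTCC or GGGANTCCC), the CCAAT box (CCAAT) and an X2 or CRE half-site (TGACGT or TGACGC).
H2-K1: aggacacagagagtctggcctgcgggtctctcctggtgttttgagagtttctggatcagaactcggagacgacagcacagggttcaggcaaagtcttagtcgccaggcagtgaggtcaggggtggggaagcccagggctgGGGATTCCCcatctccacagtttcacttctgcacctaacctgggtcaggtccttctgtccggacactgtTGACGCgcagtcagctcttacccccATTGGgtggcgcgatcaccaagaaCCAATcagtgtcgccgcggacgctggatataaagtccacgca
H2-D1: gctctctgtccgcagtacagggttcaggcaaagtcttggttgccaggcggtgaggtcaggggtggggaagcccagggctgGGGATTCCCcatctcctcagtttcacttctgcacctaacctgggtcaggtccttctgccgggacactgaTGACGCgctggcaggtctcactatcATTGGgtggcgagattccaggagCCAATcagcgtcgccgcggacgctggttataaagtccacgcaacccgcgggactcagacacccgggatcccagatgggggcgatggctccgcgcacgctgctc
B2m: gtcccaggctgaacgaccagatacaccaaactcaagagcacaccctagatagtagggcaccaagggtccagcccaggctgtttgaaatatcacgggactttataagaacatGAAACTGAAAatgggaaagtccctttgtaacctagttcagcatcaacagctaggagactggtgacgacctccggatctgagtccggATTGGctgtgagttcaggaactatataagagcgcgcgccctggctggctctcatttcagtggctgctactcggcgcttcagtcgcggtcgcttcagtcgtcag
Tap1: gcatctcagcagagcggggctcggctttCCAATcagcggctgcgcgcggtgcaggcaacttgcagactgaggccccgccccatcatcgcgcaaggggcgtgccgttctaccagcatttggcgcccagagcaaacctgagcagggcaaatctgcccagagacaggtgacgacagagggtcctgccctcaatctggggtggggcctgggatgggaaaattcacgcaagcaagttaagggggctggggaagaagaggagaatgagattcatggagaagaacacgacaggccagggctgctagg
H2-K1 and H2-D1 had the same order of matches, a κB site, an X2 or CRE half-site and a pair of CCAAT boxes on opposite strands, and 211 of the 239 bases that align between their windows are identical (88.3%). The B2m window held a match to the letters of the interferon-stimulated response element, and a CCAAT box. Tap1 and Psmb9 are read in opposite directions from start sites 226 bases apart, and their windows share 275 bases. Among the 8 of 10 genes with a window (Tap2 and Nlrc5 are named only), 6 held a CCAAT box, against 37.4% of the 32851 windows searched. The Tap1 and Psmb9 boxes are the same bases, within their shared stretch. With H2-K1 and H2-D1 also alike, the 6 are not independent. A κB site was in 2 (2.42% of windows) and an X2 or CRE half-site in 2 (14% of windows). The letters searched for the response element were in 1, B2m (3.44%), and those of the interferon-γ-activated site in 1, Psmb8 (8.3%). A match describes letters and is no evidence of binding. Variants of these elements were not searched, so a window without a match, such as H2-K1 or H2-D1 for the response element, is not shown to lack it.

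Among the ILTCk and PD1+ Tconv libraries, the PD-1 gene was highest in PD1+ Tconv and the NK1.1 gene in NK1.1+ ILTCk. Cd8a varied between libraries. Pdcd1, which encodes PD-1, had 7.41 and 5.05 CPM in NK1.1+ ILTCk and 17.7 and 29.2 CPM in NK1.1- ILTCk, against 752 and 518 CPM in PD1+ Tconv. Klrb1c, which encodes NK1.1, had 309 and 68.5 CPM in NK1.1+ ILTCk, 29.9 and 12.4 CPM in NK1.1- ILTCk and 39.5 and 2.35 CPM in PD1+ Tconv. Cd8a had 887 and 147 CPM in NK1.1+ ILTCk and 476 and 287 CPM in NK1.1- ILTCk, against 1392 and 807 CPM in PD1+ Tconv, so that the second NK1.1+ library, from a CD8α+ sort, had the least of these 6. In the thymus Cd8a had 14.6 and 34.8 CPM in ILTCkP, against 2115 and 1840.5 CPM in CD8SP. Pdcd1 was high in the progenitors, at 1324 and 1268 CPM in ILTCkP, against 24.3 and 26.9 CPM in CD8SP.

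Library totals ranged from 16530085 to 32097301 counts, with 17741 to 24559 genes detected. Each of the 10 genes passed the low-count filter in both tables, and in any library each had 907 to 195593 reads. The 10 genes took 1.08% to 1.97% of all counts. Values are CPM, each count divided by its library's TMM-scaled total, and the scaling was done within a table, so levels set across the 2 tables carry that limit. H2-D1 shares 13.9% of its 50-base stretches with other genes, most often H2-Q1 (6.68%), and H2-K1 shares 6.87%, most often with H2-D1 (5.43%). The split of reads between such chains is therefore uncertain. Tap1 and Psmb9 overlap by 212 bases on opposite strands, and with no counting strand given in the sources used here, reads of the overlap cannot be told apart.

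Per kilobase of exon, B2m was the most abundant of the 10 in 4 of the 5 groups, at 7093 and 6389 CPM per kb in NK1.1+ ILTCk, 3979 and 7599 for NK1.1- ILTCk, 7238 and 8304 for PD1+ Tconv and 3268 and 3303 in CD8SP. In ILTCkP it was below H2-D1 in both libraries, at 1045 and 1599 CPM per kb for B2m and 1399 and 1651 CPM per kb for H2-D1. Nlrc5 had the lowest level per kilobase in every group, with group means of 6.76 CPM per kb in NK1.1- ILTCk at the bottom and 38.9 CPM per kb in PD1+ Tconv at the top. By group mean, NK1.1- ILTCk stood lowest of the 5 groups for 9 of the 10 genes, the exception being B2m, which was lowest in ILTCkP. The highest group was PD1+ Tconv for H2-K1, B2m and Nlrc5, CD8SP for Tap1, Tapbp and Psmb9, ILTCkP for Tap2, Psmb8 and Psmb10, and NK1.1+ ILTCk for H2-D1. The span between highest and lowest group mean was widest for Tap2 (6.05 times), B2m (5.88 times) and Nlrc5 (5.75 times), and narrowest for H2-D1 (1.7 times). These orders run across the 2 tables, which differ in mice and were scaled apart. For Tap2 and B2m the highest and lowest groups lie in different tables. A group difference there cannot be told from a difference between the tables. Neighbours in these orders often did not differ beyond their spread: Tap2 averaged 533 ± 271 CPM in ILTCkP and 531 ± 40.7 CPM in CD8SP (SD, n = 2 each).

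**Figure D1:**
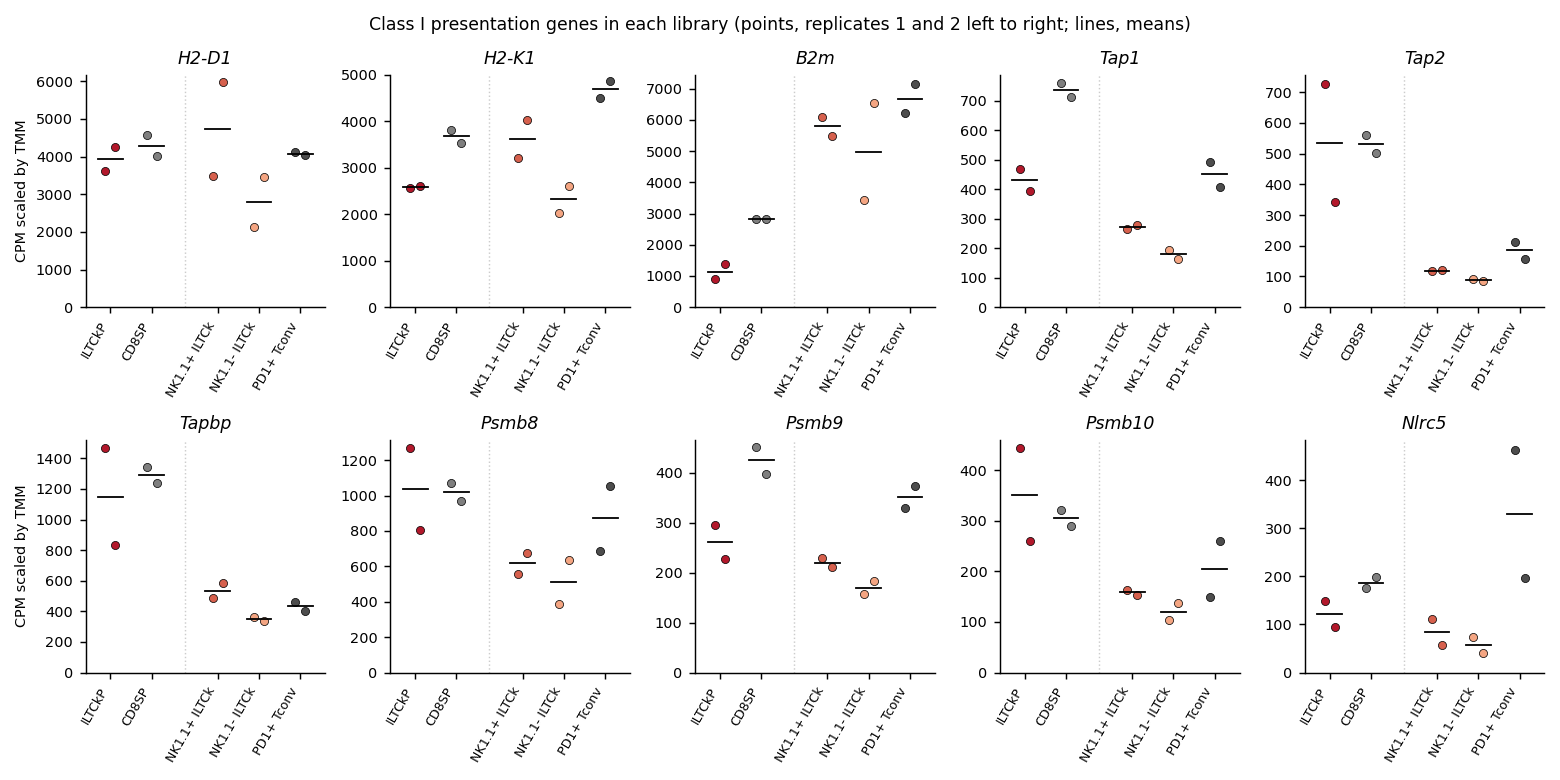
Level of each of the 10 class I presentation genes in every library (CPM, linear axis from 0), by group, with 2 points per group and a bar at the group mean. The ILTCkP points for B2m, at 898 and 1375 CPM, lie below those of every other group, and the NK1.1- ILTCk points lie at the bottom for Tap1, Tap2, Tapbp and Psmb9.

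In the thymus, the light chain B2m stood lower in ILTCkP than in CD8SP, and so did the heavy chain H2-K1, Tap1, Psmb9 and Nlrc5, while H2-D1, Tap2, Tapbp, Psmb8 and Psmb10 overlapped between the groups. Of the 10 genes, 5 were below CD8SP in both ILTCkP libraries, against 29.3% of the 14634 genes tested, and 0 were above, against 28.8%. No gene of the 10 passed edgeR's quasi-likelihood test at a Benjamini-Hochberg adjusted p under 0.05, a threshold that 4.71% of all genes passed. At an unadjusted p under 0.05 there were 4, H2-K1, B2m, Tap1 and Psmb9, against 22.1% of all genes. DESeq2 and limma-voom each called 1, B2m, against 13.6% of all genes with DESeq2 and 5.58% with limma-voom. The median log2 fold change of the 10 was -0.34, against 0.01 for all genes tested, and 7 of 10 were negative, against 49.7% of all genes.

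B2m had 898 and 1375 CPM in the ILTCkP libraries, against 2811 and 2841 CPM in the CD8SP libraries. The 2 CD8SP libraries lay close together and both ILTCkP libraries well below them, with a log2 fold change of -1.31 ± 0.27 (SE) and an adjusted p of 0.0555 by edgeR. The adjusted p was 6.90e-04 with DESeq2 and 0.0287 with limma-voom, and it ran from 3.97e-07 to 0.194 over the 9 alternatives. The heavy chain H2-K1 had 2567 and 2613 CPM in ILTCkP, against 3815 and 3540.5 CPM in CD8SP (log2 fold change -0.51 ± 0.20, adjusted p = 0.209 by edgeR). The groups do not overlap for H2-K1. The other heavy chain, H2-D1, had 3609 and 4259 CPM in ILTCkP, against 4559 and 4001 CPM in CD8SP, with the second ILTCkP library between the 2 CD8SP libraries (log2 fold change -0.12 ± 0.21). The log2 ratio of B2m to the summed heavy chains, a measure chosen after the values were seen, was -2.78 and -2.32 in ILTCkP, against -1.57 and -1.41 in CD8SP, so light chain RNA was lower relative to heavy chain RNA in both progenitor libraries.

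The transporter subunits parted. Tap1 had 471 and 395 CPM in ILTCkP, against 759.7 and 712 CPM in CD8SP, with no overlap (log2 fold change -0.77 ± 0.21, adjusted p = 0.105 by edgeR, 6.70e-04 to 0.709 over the alternatives). Its partner Tap2 had 725 and 341 CPM in ILTCkP, against 559.6 and 502 CPM in CD8SP, so that one ILTCkP library stood above and the other below both CD8SP libraries. Its log2 fold change was 0.0068 ± 0.37, with an adjusted p of 0.992 by edgeR. Tapbp, the bridge between transporter and heavy chain, straddled CD8SP in the same way, at 1464 and 833 CPM in ILTCkP and 1346 and 1237 CPM in CD8SP.

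Among the immunoproteasome subunits, Psmb9 had 294 and 228 CPM in ILTCkP, against 451 and 398 CPM in CD8SP (log2 fold change -0.70 ± 0.23, adjusted p = 0.155 by edgeR). Psmb8 had 1271 and 803 CPM in ILTCkP and 1068 and 968 CPM in CD8SP, and Psmb10 had 443 and 259 CPM in ILTCkP and 322 and 290.3 CPM in CD8SP. Both lay above CD8SP in the first ILTCkP library and below it in the second. The log2 ratio of the mean of Psmb8, Psmb9 and Psmb10 to the mean of Psmb5, Psmb6 and Psmb7 was 1.26 and 1.08 in ILTCkP, against 1.50 and 1.56 in CD8SP, and the groups did not overlap. The immunoproteasome mean by itself did overlap, at 669 and 430 CPM in ILTCkP and 614 and 552 CPM in CD8SP. The constitutive mean was 279 and 203 CPM in ILTCkP and 217 and 187 CPM in CD8SP, so the lower ratio is not lower immunoproteasome RNA in both libraries. The ratio of Psmb9 to Psmb8, chosen after the values were seen, was -2.11 and -1.82 in ILTCkP and -1.24 and -1.28 in CD8SP on the log2 scale. Nlrc5, the transactivator, had 148 and 94.6 CPM in ILTCkP, against 175 and 198 CPM in CD8SP (log2 fold change -0.62 ± 0.28, adjusted p = 0.269 by edgeR).

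Calls of these genes in the thymus depended on single libraries. The 2 ILTCkP libraries differed from each other more than the 2 CD8SP libraries did for every gene of the 10 except H2-K1. Without the first ILTCkP library 7 of the 10 passed (17.9% of all genes did), all lower, with Tap2 at -0.63, and without the second 6 passed (44.8% of all genes did), with Tap2 at 0.45 and Psmb10 at 0.53 among them as higher. In these fits the lone ILTCkP library is assumed to vary like CD8SP. All 10 T cell markers had counts in each thymic library, summing to 9438 and 9587 CPM in ILTCkP and 13414 and 12359 CPM in CD8SP. The 14 myeloid markers summed to 59.4 and 47.4 CPM in ILTCkP and 27.1 and 26.0 CPM in CD8SP, with Mrc1 at 0 in all 4 libraries. B cell markers summed to 807 and 933 CPM in ILTCkP and 904 and 776 CPM in CD8SP, most of it from the immunoglobulin gene Ighm, at 708 and 773 CPM in ILTCkP and 839 and 717 CPM in CD8SP. Double-positive thymocyte markers, which include Cd8a and Cd8b1, summed to 167 and 204 CPM in ILTCkP and 5323 and 4578 CPM in CD8SP, and the part of any of these in the results was not tested.

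**Figure D2:**
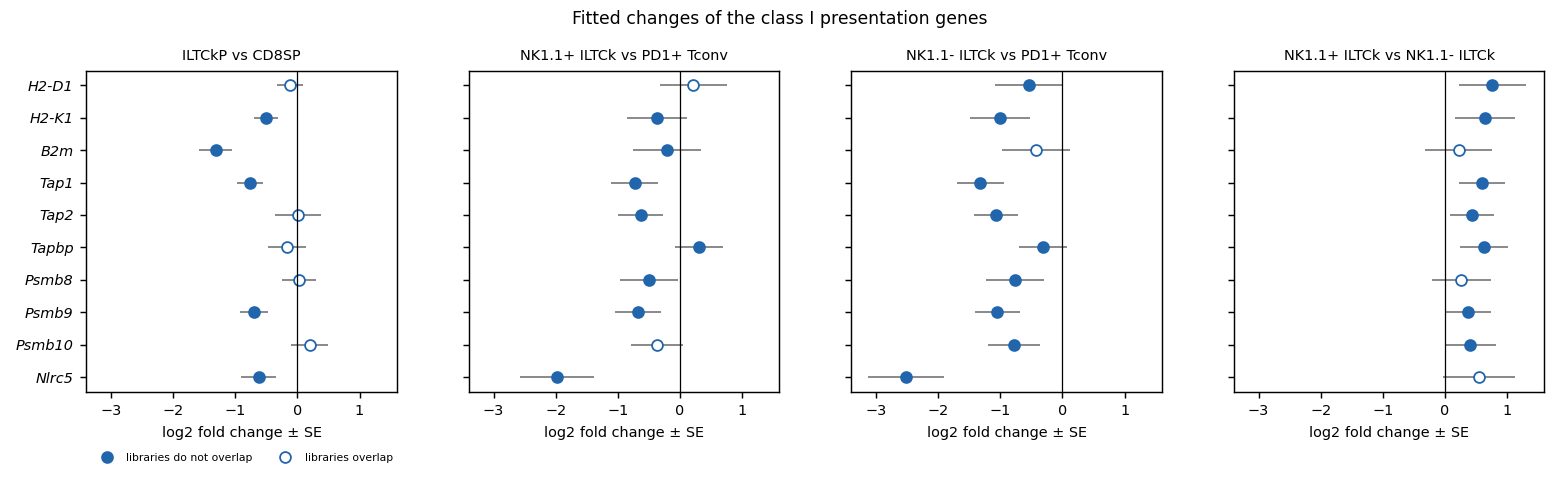
Log2 fold change of each of the 10 genes (points, with the standard error as bars) in the 4 comparisons. In the thymic comparison B2m lies furthest below 0, at -1.31, and against PD1+ Tconv Nlrc5 lies furthest below, at -1.97 for NK1.1+ ILTCk and -2.52 for NK1.1- ILTCk.

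Against PD1+ Tconv, both ILTCk groups had less Nlrc5, Tap1, Tap2, Psmb8, Psmb9 and H2-K1 RNA in every library, and the widest gap was at Nlrc5. These are bulk samples, in which fewer cells of a type and less RNA per cell cannot be told apart. The 2 comparisons share the PD1+ Tconv libraries, so their values are given side by side and not as independent evidence. In NK1.1+ ILTCk, 7 of the 10 were below both PD1+ Tconv libraries (20.8% of 18091 genes tested) and 1, Tapbp, was above both (20.7%). In NK1.1- ILTCk, 9 were below both (22.7%), all but B2m, and 0 above (23.1%). The median log2 fold change was -0.44 for NK1.1+ ILTCk and -0.89 for NK1.1- ILTCk, against -0.04 over all genes in both. Negative fold changes numbered 8 of 10 for NK1.1+ ILTCk (51.5% of all genes) and 10 of 10 for NK1.1- ILTCk (52.2%).

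No gene of the 10, and 0% of all genes, passed edgeR's test at an adjusted p under 0.05 in either comparison. At an unadjusted p under 0.05 there was 1 for NK1.1+ ILTCk, Nlrc5, against 14.3% of all genes, and there were 4 for NK1.1- ILTCk, Tap1, Tap2, Psmb9 and Nlrc5, against 11.9% of all genes. DESeq2 called 1 for NK1.1+ ILTCk, Nlrc5, and 2 for NK1.1- ILTCk, Tap1 and Nlrc5. Of the genes it gave an adjusted p, it called 7.45% and 4.74% in the same order. limma-voom called 0 in both.

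Nlrc5 had 111 and 56.9 CPM in NK1.1+ ILTCk and 73.5 and 41.3 CPM in NK1.1- ILTCk, against 464 and 197 CPM in PD1+ Tconv. Every ILTCk library was below both PD1+ Tconv libraries, which themselves differed by more than any pair of ILTCk libraries in absolute level. The log2 fold change was -1.97 ± 0.60 for NK1.1+ ILTCk (adjusted p = 0.234 by edgeR, 0.0329 by DESeq2, 0.00649 to 0.865 over the alternatives). In NK1.1- ILTCk it was -2.52 ± 0.61 (adjusted p = 0.351 by edgeR, 0.00575 by DESeq2, 5.31e-04 to 1.00 over the alternatives). Without the first PD1+ Tconv library, the one with more Nlrc5, the log2 fold change was -1.21 for NK1.1+ ILTCk and -1.76 for NK1.1- ILTCk. The related transactivator of class II genes, Ciita, lay the other way, at 45.0 and 25.9 CPM in NK1.1+ ILTCk and 32.1 and 8.57 CPM in NK1.1- ILTCk, against 6.68 and 5.91 CPM in PD1+ Tconv. Its log2 fold changes were 2.49 ± 0.69 for NK1.1+ ILTCk and 1.69 ± 0.67 for NK1.1- ILTCk, with adjusted p of 0.206 and 0.404 by edgeR.

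Of the class I chains, H2-K1 had 3214 and 4018 CPM in NK1.1+ ILTCk and 2036 and 2612 CPM in NK1.1- ILTCk, against 4507 and 4861 CPM in PD1+ Tconv. Its log2 fold change was -0.37 ± 0.48 for NK1.1+ ILTCk and -1.01 ± 0.48 for NK1.1- ILTCk (adjusted p = 0.784 and 0.452 by edgeR). H2-D1 had 3484 and 5984 CPM in NK1.1+ ILTCk and 2138 and 3447 CPM in NK1.1- ILTCk, against 4108 and 4045 CPM in PD1+ Tconv, with one NK1.1+ library above and one below PD1+ Tconv. B2m had 6100.0 and 5494 CPM in NK1.1+ ILTCk and 3422 and 6535 CPM in NK1.1- ILTCk, against 6225 and 7141 CPM in PD1+ Tconv, and the 2 NK1.1- libraries lay far apart. The heavy chains did not keep 1 ratio across the groups. The log2 ratio of CPM, H2-D1 over H2-K1 with no correction for length, was 0.12 and 0.57 for NK1.1+ ILTCk and 0.071 and 0.40 for NK1.1- ILTCk, against -0.13 and -0.27 for PD1+ Tconv. It was above both PD1+ Tconv libraries in all 4 ILTCk libraries, and it is a description chosen after the values were seen.

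For the transporter, Tap1 had 266 and 279 CPM in NK1.1+ ILTCk and 196 and 165 CPM in NK1.1- ILTCk, against 493 and 408 CPM in PD1+ Tconv. Tap2 had 117 and 122 CPM in NK1.1+ ILTCk and 92.2 and 84.1 CPM in NK1.1- ILTCk, against 214 and 157 CPM in PD1+ Tconv. Both subunits were ordered the same way, PD1+ Tconv highest, then NK1.1+ ILTCk, then NK1.1- ILTCk, with no overlap between any of the 3 groups. The log2 fold change of Tap1 was -0.73 ± 0.38 for NK1.1+ ILTCk and -1.32 ± 0.38 for NK1.1- ILTCk, and that of Tap2 was -0.63 ± 0.36 and -1.07 ± 0.36 in the same order (adjusted p by edgeR 0.434, 0.361, 0.478 and 0.369). With DESeq2 the adjusted p of Tap1 in the NK1.1- comparison was 0.0222, and the alternatives ran from 0.0222 to 1.00. Tapbp had 488 and 584 CPM in NK1.1+ ILTCk and 361 and 334 CPM in NK1.1- ILTCk, against 460.2 and 405 CPM in PD1+ Tconv, which put PD1+ Tconv between the 2 ILTCk groups. The log2 ratio of Tap1 to Tap2 varied little in these 6 libraries, at 1.19 and 1.19 for NK1.1+ ILTCk, 1.09 and 0.97 for NK1.1- ILTCk and 1.21 and 1.38 for PD1+ Tconv. It was -0.62 and 0.21 in ILTCkP and 0.44 and 0.51 in CD8SP, and no test was made between the tables.

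Psmb9 had 228 and 212 CPM in NK1.1+ ILTCk and 157 and 183 CPM in NK1.1- ILTCk, against 329.7 and 373 CPM in PD1+ Tconv, with no overlap (log2 fold change -0.68 ± 0.36 for NK1.1+ ILTCk and -1.05 ± 0.37 for NK1.1- ILTCk). Psmb8 had 557 and 675 CPM in NK1.1+ ILTCk and 389.9 and 636 CPM in NK1.1- ILTCk, against 688 and 1056 CPM in PD1+ Tconv. Psmb10 had 163 and 154 CPM in NK1.1+ ILTCk and 103 and 136 CPM in NK1.1- ILTCk, against 149.8 and 259.9 CPM in PD1+ Tconv, where the first PD1+ Tconv library lay within the ILTCk range. The log2 ratio of immunoproteasome to constitutive catalytic subunits was 0.69 and 0.32 for NK1.1+ ILTCk and 0.28 and 0.37 for NK1.1- ILTCk, against 1.73 and 1.25 for PD1+ Tconv. All 4 ILTCk libraries had a ratio below both PD1+ Tconv libraries. The immunoproteasome mean was 316 and 347 CPM in NK1.1+ ILTCk and 217 and 318 CPM in NK1.1- ILTCk, against 389 and 563 CPM in PD1+ Tconv. The constitutive mean was 196 and 277 CPM, 178 and 247 CPM and 118 and 237.5 CPM in the same order. The first PD1+ Tconv library, with the highest ratio, thus also had the lowest constitutive mean. An exact two-sided permutation test of 2 libraries against 2 cannot give a p below 0.333, so no test of a ratio was made.

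**Figure D3:**
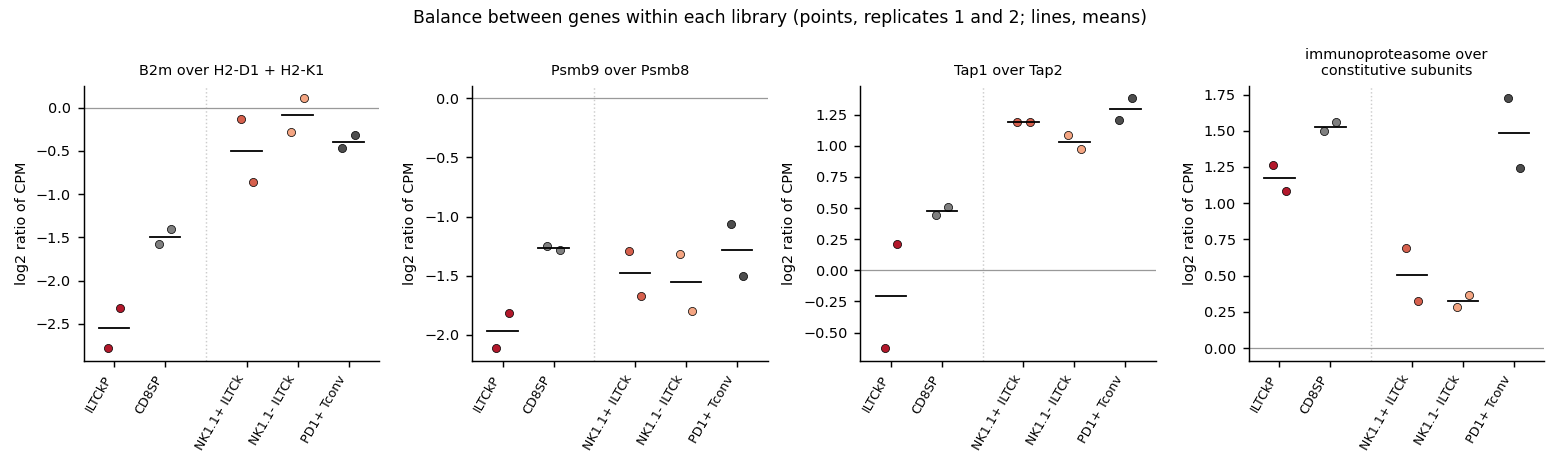
Per-library log2 ratios of CPM by group (points, with lines at the means) for B2m to the summed heavy chains, Psmb9 to Psmb8, Tap1 to Tap2, and the immunoproteasome catalytic subunits to their constitutive counterparts. For B2m to heavy chains the ILTCkP libraries are lowest, at -2.78 and -2.32, and for the immunoproteasome ratio the ILTCk libraries, 0.28 at the lowest and 0.69 at the highest, lie below PD1+ Tconv, at 1.73 and 1.25.

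RNA of other cells also differed between these groups. The 14 myeloid markers summed to 7848 and 20009 CPM in NK1.1+ ILTCk and 3403 and 3275 CPM in NK1.1- ILTCk, against 265 and 1136 CPM in PD1+ Tconv, and all 14 had counts in each of the 6 libraries. Csf1r, the receptor of macrophage colony-stimulating factor, had 689 and 1493 CPM in NK1.1+ ILTCk, 192 and 88.8 CPM in NK1.1- ILTCk and 13.9 and 20.4 CPM in PD1+ Tconv. C1qa, a complement gene of macrophages, had 707 and 1922 CPM, 144 and 163 CPM and 11.0 and 56.3 CPM in the same order of groups. Both macrophage genes were above PD1+ Tconv in all 4 ILTCk libraries. The 10 dendritic cell and class II markers summed to 15066 and 9645 CPM in NK1.1+ ILTCk and 5978 and 2366 CPM in NK1.1- ILTCk, against 431 and 1083 CPM in PD1+ Tconv. The class II chain H2-Aa had 3619 and 2755 CPM in NK1.1+ ILTCk, 1379.8 and 732 CPM in NK1.1- ILTCk and 72.2 and 343 CPM in PD1+ Tconv. Epithelial and mammary markers summed to 1980.2 and 2564 CPM in NK1.1+ ILTCk and 2919 and 3815 CPM in NK1.1- ILTCk, against 791 and 1873 CPM in PD1+ Tconv, with the keratin Krt8 at 519 and 693 CPM, 788 and 822 CPM and 144 and 434 CPM in that order. The summed class II and summed epithelial markers were higher in all 4 ILTCk libraries than in either PD1+ Tconv library, though single epithelial markers such as Epcam overlapped. T cell markers ran the other way, summing to 4387 and 926 CPM in NK1.1+ ILTCk and 2483 and 1851 CPM in NK1.1- ILTCk, against 8309 and 4895 CPM in PD1+ Tconv. Class I genes are expressed in all of these cell types, and the part of their RNA in the values above was not tested. Without the second NK1.1+ library, which had the most myeloid and least T cell RNA, the log2 fold change of Nlrc5 for NK1.1+ ILTCk was -1.57, that of Tap1 -0.76 and that of H2-D1 -0.22, against 0.21 for H2-D1 with it.

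**Figure D4:**
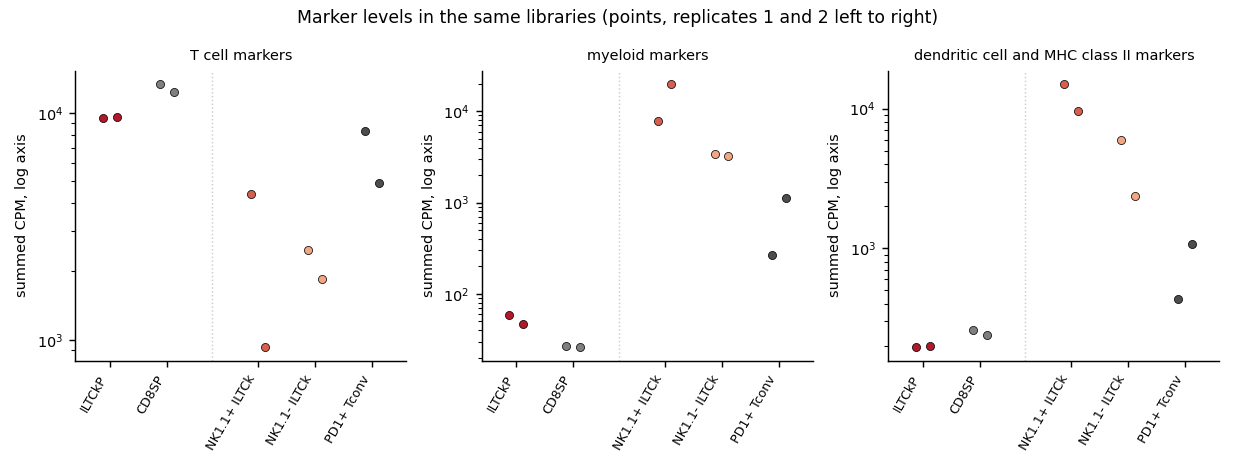
Summed level (CPM, log axis) of T cell, myeloid, and dendritic cell and class II markers in each library, by group. Myeloid markers reach 7848 and 20009 CPM in NK1.1+ ILTCk, against 265 and 1136 CPM in PD1+ Tconv, and in the thymic libraries they are at most 59.4 CPM.

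Between the ILTCk groups, all 10 genes had a positive fold change in NK1.1+ ILTCk over NK1.1- ILTCk (50.6% of all genes did), with a median log2 fold change of 0.49, against 0.01 for all genes. In 7 of the 10 both NK1.1+ libraries were above both NK1.1- libraries, against 18.6% of the 18091 genes, and in 0 below, against 18.9%. The overlapping genes were B2m, Psmb8 and Nlrc5. The largest differences were at H2-D1 (0.76 ± 0.54), H2-K1 (0.64 ± 0.48), Tapbp (0.62 ± 0.39) and Tap1 (0.59 ± 0.38), all smaller than 2 standard errors. edgeR called 0 of the 10 and 0% of all genes, with an adjusted p of 0.9998 for each of the 10. At an unadjusted p under 0.05 there were 0 of the 10, against 3.94% of all genes, and DESeq2 and limma-voom also called 0. The values per library are those given above. Myeloid sums were also higher in NK1.1+ ILTCk, at 7848 and 20009 CPM, against 3403 and 3275 CPM in NK1.1- ILTCk. So were class II sums, at 15066 and 9645 CPM, against 5978 and 2366 CPM. Epithelial sums were lower in NK1.1+ ILTCk, at 1980 and 2564 CPM, against 2919 and 3815 CPM, and T cell sums overlapped. The part of any of these was not tested.

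Other genes of the pathway were read from lists chosen with earlier results known. In ILTCkP against CD8SP, interferon-stimulated genes stood apart: 18 of 32 fell, against 1.33% of all genes, and 0 rose, against 3.38%. Of the 32, 28 were below CD8SP in both libraries, against 29.3% of all genes, and the median log2 fold change was -1.75. DESeq2 called 23 of them (13.6% of all genes) and limma-voom 19 (5.58%). Ifit1, which binds foreign RNA, had 7.44 and 9.03 CPM in ILTCkP, against 99.9 and 109 CPM in CD8SP, and the chaperone gene Rtp4 had 40.7 and 43.2 CPM, against 203 and 193 CPM. Oas2, an antiviral enzyme, had 1.85 and 1.04 CPM in ILTCkP, against 27.1 and 26.5 CPM in CD8SP. Of 20 regulators of class I transcription and interferon signalling, 2 rose (3.38% of all genes) and 2 fell (1.33%). Irf9, the DNA-binding part of the type I interferon complex, fell (log2 fold change -1.11 ± 0.21, adjusted p = 0.0441 by edgeR). Nfkb1, a κB-binding subunit, rose to 307 and 227 CPM in ILTCkP, against 57.3 and 50.2 CPM in CD8SP (log2 fold change 2.31 ± 0.26, adjusted p = 0.0107 by edgeR), and Irf8 rose to 58.2 and 57.6 CPM, against 19.5 and 20.2 CPM. Irf1, a direct activator of Tap1 and Psmb9, had 285 and 224 CPM in ILTCkP and 329 and 325 CPM in CD8SP (-0.36 ± 0.22), and Ciita had 11.2 and 1.53 CPM in ILTCkP and 1.79 and 2.97 CPM in CD8SP. The interferon-γ receptor chain Ifngr2 had 7.64 and 21.6 CPM in ILTCkP and 40.0 and 55.6 CPM in CD8SP, with an adjusted p of 0.147 by edgeR. Of 8 tested interferon receptor and ligand genes, 0 passed. At an unadjusted p under 0.05 by edgeR there were 3, against 22.1% of all genes. DESeq2 called 1 (13.6% of all genes) and limma-voom 0 (5.58%).

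Among 14 tested class Ib and other class I-like genes in the thymus, 1 rose (3.38% of all genes) and 2 fell (1.33%). H2-Q6 rose to 174 and 215 CPM in ILTCkP, against 26.4 and 23.8 CPM in CD8SP (log2 fold change 2.95 ± 0.25, adjusted p = 0.00626 by edgeR). H2-Q6 shares 32% of its 50-base stretches with other genes, most often with H2-Q7, which had 199 and 214 CPM in ILTCkP and 279 and 206 CPM in CD8SP, so how reads were split between such copies is uncertain. H2-T24 fell to 6.73 and 10.5 CPM in ILTCkP, against 43.3 and 41.1 CPM in CD8SP, and Fcgrt, the neonatal Fc receptor chain that also pairs with B2m, fell to 2.24 and 0.980 CPM, against 25.4 and 25.0 CPM. None of 13 peptide loading and trimming genes passed edgeR's test. At an unadjusted p under 0.05 by edgeR there was 1, against 22.1% of all genes. DESeq2 called 0 (13.6% of all genes) and limma-voom 0 (5.58%). None of 19 constitutive proteasome and regulator genes passed either. Here 3 had an unadjusted p under 0.05 by edgeR (22.1% of all genes). DESeq2 called 1 (13.6%) and limma-voom 0 (5.58%). The nearest was the interferon-inducible proteasome activator subunit Psme2, with 249.8 and 240.5 CPM in ILTCkP and 469 and 429 CPM in CD8SP (-0.87 ± 0.20, adjusted p = 0.0730 by edgeR).

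Against PD1+ Tconv no gene of these lists passed edgeR's test, and limma-voom called 0. For NK1.1+ ILTCk, an unadjusted p under 0.05 was reached by 8 of 17 tested class I-like genes, 4 of 20 regulators, 2 of 8 interferon receptor and ligand genes and 7 of 32 interferon-stimulated genes, against 14.3% of all genes. DESeq2 called 5, 2, 1 and 5 in these lists, against 7.45% of the genes it gave an adjusted p. For NK1.1- ILTCk the numbers at an unadjusted p under 0.05 were 8, 5, 3 and 4, against 11.9% of all genes. DESeq2 called 5, 0, 1 and 1 there, against 4.74% of the genes it gave an adjusted p. Ifng, the cytokine that induces the class I pathway, had 8.26 and 5.73 CPM in NK1.1+ ILTCk and 17.3 and 25.3 CPM in NK1.1- ILTCk, against 76.3 and 62.5 CPM in PD1+ Tconv, with no overlap between any of the 3 groups (log2 fold change -3.31 ± 0.44 for NK1.1+ ILTCk and -1.70 ± 0.41 for NK1.1- ILTCk, adjusted p 0.0779 and 0.351 by edgeR). Gbp7, an interferon-γ-induced GTPase, had 20.4 and 16.7 CPM in NK1.1+ ILTCk and 34.4 and 71.5 CPM in NK1.1- ILTCk, against 165 and 141 CPM in PD1+ Tconv. Irf1 had 209.8 and 223 CPM in NK1.1+ ILTCk and 160.1 and 166 CPM in NK1.1- ILTCk, against 273 and 196 CPM in PD1+ Tconv, so that the second PD1+ Tconv library lay between the ILTCk groups. The tapasin relative Tapbpl had 66.4 and 43.7 CPM in NK1.1+ ILTCk and 53.6 and 52.1 CPM in NK1.1- ILTCk, against 146 and 85.4 CPM in PD1+ Tconv. Gbp7 and Tapbpl stood below both PD1+ Tconv libraries in every ILTCk library. The class Ib gene H2-Q10, whose reads may be shared with other H2-Q copies, had 5.13 and 3.34 CPM in NK1.1+ ILTCk and 5.96 and 4.10 CPM in NK1.1- ILTCk, against 33.2 and 21.1 CPM in PD1+ Tconv, with adjusted p of 0.121 and 0.344 by edgeR. In NK1.1+ against NK1.1- ILTCk no gene of these lists passed edgeR's test, and limma-voom called 0. DESeq2 called 1, Fcgrt, against 0.373% of the genes it gave an adjusted p. Fcgrt had 61.6 and 1088 CPM in NK1.1+ ILTCk, against 24.7 and 47.3 CPM in NK1.1- ILTCk. The class Ib gene H2-M3 had 79.3 and 95.7 CPM in NK1.1+ ILTCk, against 50.4 and 46.9 CPM in NK1.1- ILTCk, and Irf8 had 138 and 114 CPM, against 52.8 and 23.6 CPM.

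**Figure D5:**
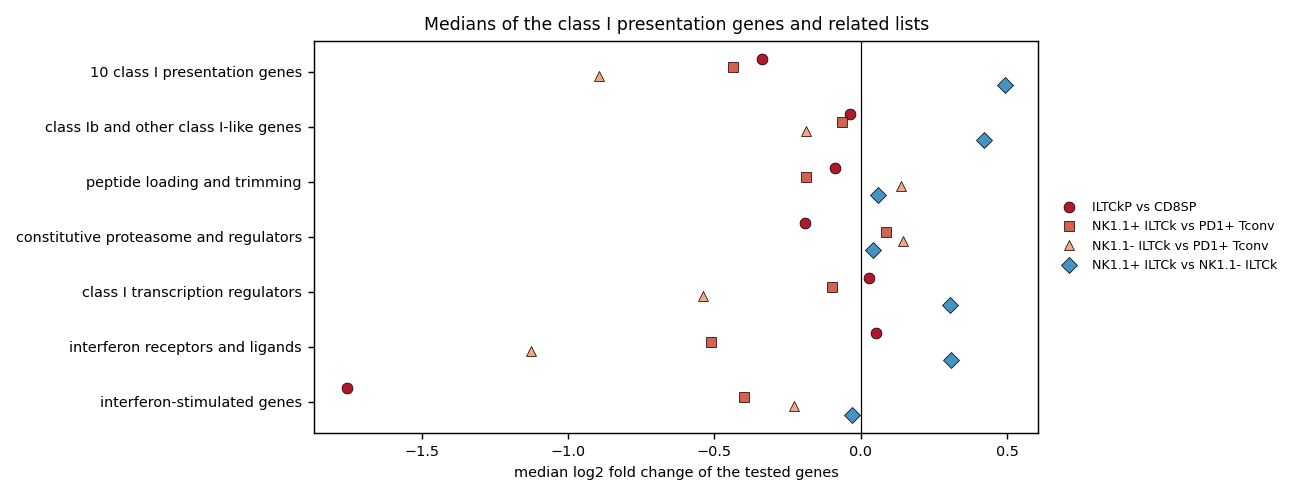
Median log2 fold change of the tested genes of each list in the 4 comparisons. The interferon-stimulated genes in ILTCkP lie furthest below 0, at -1.75, while the 10 class I presentation genes lie at -0.34 there and at -0.89 for NK1.1- ILTCk against PD1+ Tconv.

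Within the 6 libraries of the ILTCk and PD1+ Tconv table, the 10 genes did not all share one pattern. Against the mean centred log2 level of the 10, Pearson's r over the 6 libraries was 0.97 for both Psmb9 and H2-K1, 0.95 for Tap1, 0.93 for Tap2, 0.81 for Nlrc5, 0.80 for Psmb8, 0.78 for Psmb10, 0.68 for B2m, 0.62 for H2-D1 and 0.47 for Tapbp. Each gene is part of the mean it is set against, and the 6 points share their libraries and groups, so these are descriptions. Of the 8074 genes with a mean log2 level of at least 4, the non-members most like this mean were Bloc1s4, Mri1, Parp11, N4bp1, Mrgbp, Batf, Phf11b and 2810013P06Rik, with r between 0.960 and 0.995. Parp11 had 16.3 and 16.5 CPM in NK1.1+ ILTCk and 11.7 and 11.5 CPM in NK1.1- ILTCk, against 22.7 and 24.3 CPM in PD1+ Tconv. Batf, a transcription factor of activated T cells, had 32.3 and 30.9 CPM in NK1.1+ ILTCk and 19.8 and 17.5 CPM in NK1.1- ILTCk, against 64.3 and 49.6 CPM in PD1+ Tconv.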

How the data were processed

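Bulk RNA-seq was analysed from 10 libraries in 5 groups, and 4 single-cell samples were not analysed here. The deposited files hold raw counts per gene symbol in 2 tables, and per the submitters' processing notes the genome build was mm10 and DESeq was used. No aligner, counter or strand setting is given in the sources used here. The 10 genes and all lists were chosen with earlier results of these data known.

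The tables were fitted apart with edgeR 4.0.16 (filterByExpr, TMM, robust quasi-likelihood test, Benjamini-Hochberg over all genes, threshold 0.05), each with all its groups in one model (R 4.3.3). Alternatives were size factors of the RLE kind, DESeq2 1.42.0, limma-voom 3.58.1, no filter on low counts, the replicate number as a block, each library left out in turn and, in the 6-library table, only the 4 libraries compared. The fitting was tested on simulated data. Named genes were the 10, up to 3 per list with the smallest unadjusted p, and Ciita, Irf1, Csf1r, C1qa, H2-Aa and Krt8. Irf9, H2-Q7, Pdcd1, Klrb1c, Cd8a, Tyrobp, Fcgr3, Lyz2 and the ratios other than that of the proteasome subunits were picked after their values were seen. A gene the rule names is not reported here. Coordinates and exon lengths came from GENCODE M21, promoter windows from RefSeq, and 47653 of 50508 symbols matched the name table. For the likeness, log2(CPM + 1) was used. Totals of 16530085 to 32097301 counts set the depth.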

Additional observations from a re-analysis of the deposited data

How the results depend on the processing

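Of the 40 log2 fold changes (10 genes in 4 comparisons), 30 kept their sign under every alternative and 10 did not, and of 390 alternative values 349 kept both sign and side of the threshold, 25 newly passed it with the same sign and 16 changed sign, 1 of which also passed it (Tap2 without the first ILTCkP library). In ILTCkP against CD8SP the number of the 10 genes called, 0 by edgeR, was 1 with DESeq2, 1 with limma-voom, 2 without a filter on low counts and 0 to 7 when one library was left out, in fits that called 17.9% of all genes without the first ILTCkP library, 44.8% without the second, and 4.25% and 3.78% without the first or second CD8SP library. In NK1.1+ ILTCk against PD1+ Tconv it was 1 with DESeq2 and 1 without the filter, and in NK1.1- ILTCk against PD1+ Tconv 2 with DESeq2 and 1 without the filter. It was 0 for NK1.1+ against NK1.1- ILTCk under each alternative. Over all genes DESeq2 called 1997, 1269, 708 and 57 in the 4 comparisons in the order reported, limma-voom 816, 3, 0 and 0, and edgeR 689, 0, 0 and 0. Without the filter, edgeR called 2535, 1249, 799 and 167, or 10.8%, 3.91%, 2.5% and 0.523% of the genes then tested. Those numbered 23559 in the thymic comparison and 31953 in the others. The cause was not tested.

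With the replicate number as a block, 2 genes passed in ILTCkP (B2m and Tap1) and 1, Nlrc5, in each comparison with PD1+ Tconv. Calls over all genes were then 2212, 755, 298 and 0, or 15.1%, 4.17%, 1.65% and 0% of those tested. Deviations of same-numbered libraries correlated at r = 0.19 in the thymic table and 0.36 to 0.41 in the other, but with 2 numbers the pairing is not established. Under the block, Tap2 stood at -0.091 and Psmb8 at -0.0091 in ILTCkP, and with limma-voom at -0.10 and -0.015. With one library left out, log2 fold changes in ILTCkP ran from -0.63 to 0.45 for Tap2, -0.33 to 0.32 for Psmb8, -0.25 to 0.00073 for H2-D1, -0.23 to 0.53 for Psmb10 and -0.62 to 0.18 for Tapbp. In NK1.1+ ILTCk against PD1+ Tconv they ran from -0.22 to 0.56 for H2-D1 and -0.70 to 0.052 for Psmb10. In NK1.1+ against NK1.1- ILTCk they ran from -0.016 to 1.03 for Nlrc5, -0.17 to 0.73 for B2m and -0.042 to 0.62 for Psmb8. From means of log2 values, the immunoproteasome ratio was 1.42 and 1.47 in the CD8SP libraries and 0.30 in the second NK1.1- ILTCk library. Groups of 2 libraries limit what any of these tests can call.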

Other observations

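The 2 ILTCkP libraries split the 10 genes. Tap2, Tapbp, Psmb8, Psmb9, Psmb10, Tap1 and Nlrc5 were higher in the first ILTCkP library, and H2-D1, H2-K1 and B2m in the second. The widest gaps were at Tap2, 725 and 341 CPM, and Tapbp, 1464 and 833 CPM, on the one side, and B2m, 898 and 1375 CPM, on the other. In the CD8SP libraries the same genes lay close together, with Tap2 at 559.6 and 502 CPM, Tapbp at 1346 and 1237 CPM and B2m at 2811 and 2841 CPM.

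In the ILTCk and PD1+ Tconv libraries, interferon-stimulated genes were higher in the second library of each group, with sums of 1408 and 3807 CPM in NK1.1+ ILTCk and 1351 and 3745 CPM in NK1.1- ILTCk, against 2382 and 3907 CPM in PD1+ Tconv. Psmb8 was likewise higher in the second library of each of these groups, at 557 and 675, 389.9 and 636 and 688 and 1056 CPM in the same order, while Nlrc5 was higher in the first of each.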
